A study of Mus musculus with 12 samples.

Results

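Pecam1, Nos3, Edg1, Efnb2 and Ephb4 are 5 vessel genes printed on a nylon membrane array of 100 angiogenesis-related genes, and their spots were read here in the fracture callus of mice labelled WT HIF-1a or HET HIF-1a. The genes were taken by name from the scanner readings, whatever their values, and each has 1 spot per membrane. The study broke 1 femur of each mouse by a closed, fixed fracture and took the callus, the repair tissue that bridges the break, 7, 10 or 14 days later (post fracture days, PFD). RNA of 3 animals was pooled in equal parts for each genotype and day, labelled with biotin and hybridised to 1 membrane, which gives 6 membranes and no replicate of any group. HET is the label of the mice that the series title describes as partially deficient in HIF-1alpha, the oxygen-regulated subunit of hypoxia-inducible factor 1, and the construction of the allele, the cells that carry it, strain and age are not stated in the labels. With 1 membrane per group, the values for a given day are a description of those membranes with no test, and a difference cannot be told apart from the spread between pools.

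Pecam1 encodes CD31, an adhesion protein of endothelial cell junctions that platelets and leukocytes also carry. Nos3 encodes endothelial nitric oxide synthase, and Edg1, now named S1pr1, encodes the sphingosine-1-phosphate receptor that stabilises vessel walls. Ephrin-B2, from Efnb2, is a membrane-bound ligand and EphB4, from Ephb4, is its receptor tyrosine kinase: in mouse embryos ephrin-B2 marks arterial and EphB4 marks venous endothelium, and signals pass both ways where the cells touch. In mouse bone the same pair also works between osteoclasts, which carry ephrin-B2, and osteoblasts, which carry EphB4. HIF-1 is a transcription factor that binds short DNA cores in hypoxia-responsive genes, and callus is invaded by vessels as its cartilage is replaced by bone.

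The promoter windows of the ligand and the receptor are shown because ephrin-B2 and EphB4 act as a pair and HIF-1, a DNA-binding factor, is what differs by genotype. Both come from RefSeq (GRCm38.p6), run 5′ to 3′ in the direction of the gene from 250 bases before to 50 after its start, and lie at chr8:8661193-8661492 on the minus strand for Efnb2 and chr5:137349859-137350158 on the plus strand for Ephb4. Of the 5 genes, these 2 matched the promoter table by name. Capitals mark CCAAT, the letters of a CCAAT box, and GGGCGG or its reverse complement CCGCCC, the letters of a GC box.
Efnb2: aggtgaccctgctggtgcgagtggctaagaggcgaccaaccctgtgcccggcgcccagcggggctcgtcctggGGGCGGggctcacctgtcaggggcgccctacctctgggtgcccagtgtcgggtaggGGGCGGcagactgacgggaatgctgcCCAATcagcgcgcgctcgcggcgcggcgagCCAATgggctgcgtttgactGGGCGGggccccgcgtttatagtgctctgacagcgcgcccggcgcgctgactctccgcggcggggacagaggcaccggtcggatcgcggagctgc
Ephb4: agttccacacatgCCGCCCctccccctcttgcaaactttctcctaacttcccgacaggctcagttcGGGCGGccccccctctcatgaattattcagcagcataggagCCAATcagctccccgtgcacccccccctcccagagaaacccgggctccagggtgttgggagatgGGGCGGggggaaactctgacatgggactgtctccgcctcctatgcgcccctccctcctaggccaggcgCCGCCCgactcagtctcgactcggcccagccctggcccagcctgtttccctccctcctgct
The Efnb2 window was 72.3% G and C, held CCAAT at 95 and 65 bases before the start, and held GGGCGG at 177, 121 and 45 bases before it. The Ephb4 window was 64.7% G and C, held CCAAT once, 143 bases before the start, and held the GC box letters 4 times, at 237, 184, 79 and 11 bases before it. The core letters bound by HIF-1, ACGTG or GCGTG on either strand, occurred 0 times in both windows, which says only that these letters are not in these 300 bases. Among all 32851 mouse promoter windows of that length, 43.8% held an HIF core on either strand, 37.4% held CCAAT and 35.7% held GGGCGG. The motifs were chosen after the windows had been seen, the matches are a description of sequence, and no motif overlapped another.

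The membranes differed in overall brightness, and the day 7 pair stood apart. A gene was counted as above background where its spot density, the darkness of the spot on the scanner's linear scale, was higher than that of the brightest of the 6 control spots (PUC18 plasmid or blank) on the same membrane. On PFD 7 this held for 9 of 100 genes (9%) on the WT membrane and 12 of 100 (12%) on the HET membrane. The share was 76% for WT and 91% for HET on PFD 10, and 79% for WT and 44% for HET on PFD 14. The median density of the 100 genes was 32.3 and 160 on the WT and HET membranes of PFD 7, 1435 and 511 on PFD 10, and 1129 and 130.0 on PFD 14. The Hif1a spot read 8037, 11449 and 11008 in WT and 25140, 6924 and 6574 in HET on PFD 7, 10 and 14. On PFD 7 the membrane labelled HET was thus the brighter for Hif1a, against the label, while on PFD 10 and 14 it was the dimmer. The labels do not place the Hif1a probe relative to the altered stretch of Hif1a, so its spot does not check the genotype.

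All 5 vessel genes were below background on both PFD 7 membranes and above it on both PFD 10 membranes and on the WT membrane of PFD 14. On the HET membrane of PFD 14, 3 of the 5 remained above the controls. Pecam1 read 26.0 in WT and 132 in HET on PFD 7, 2113 and 615 on PFD 10, and 1592 and 277 on PFD 14. Nos3 read 23.3 and 141 on PFD 7, 3352 and 720 on PFD 10, and 2399 and 215 on PFD 14, again with WT first. For both genes the WT signal was the higher on PFD 10 and on PFD 14. The HET signal of PFD 14 sat close to the controls, at 1.46 times the brightest control spot for Pecam1 and 1.13 times for Nos3. In WT the same ratios were 4.31 and 6.84 on PFD 10 and 4.26 and 6.42 on PFD 14.

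Edg1 lay near the controls in WT and held level there between PFD 10 and PFD 14. Its density was 105 in WT and 289 in HET on PFD 7, 680 and 504 on PFD 10, and 702 and 53.6 on PFD 14. The HET reading of PFD 7 reached 0.926 times the brightest control spot, just short of the threshold, while the HET reading of PFD 14 was 0.28 times it. In WT the Edg1 spot cleared the brightest control by 1.39 times on PFD 10 and 1.88 times on PFD 14.

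Efnb2, the ligand, stood far above the controls on all 4 membranes of PFD 10 and PFD 14. It read 9.32 in WT and 122 in HET on PFD 7, 31497 and 18766 on PFD 10, and 9236 and 2240 on PFD 14. These were 64.2 and 116 times the brightest control spot on PFD 10 and 24.7 and 11.8 times on PFD 14. Its signal was the higher in WT on both days and peaked on PFD 10 in both genotypes. Probes differ in how strongly they bind, so such ratios show how well a spot could be read and do not set one gene's mRNA level against another's.

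Ephb4, the receptor, read 64.9 in WT and 196 in HET on PFD 7, 2436 and 572 on PFD 10, and 765 and 72.9 on PFD 14. It was thus above background in 3 of the 4 later membranes, at 4.97, 3.53 and 2.05 times the brightest control in WT of PFD 10, HET of PFD 10 and WT of PFD 14. The HET spot of PFD 14, at 0.38 times the brightest control, had only an upper bound.

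**Figure D1:**
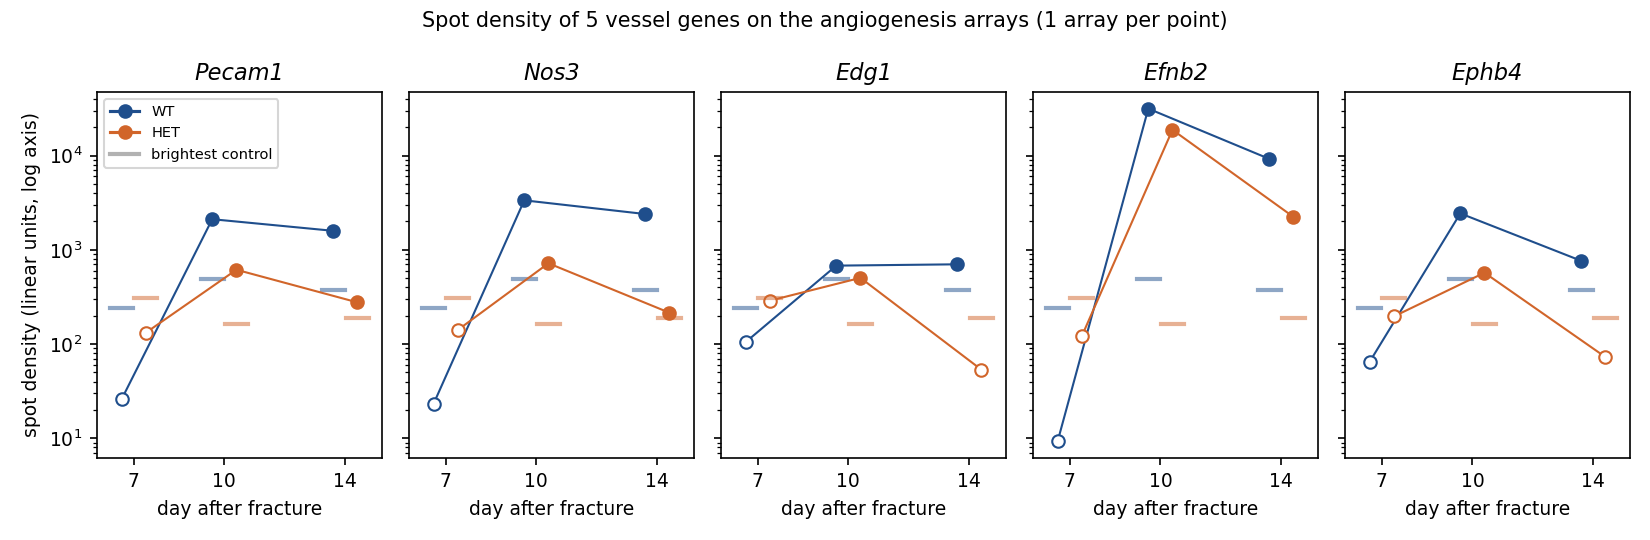
Spot density (linear scanner units on a log axis) against day after fracture for Pecam1, Nos3, Edg1, Efnb2 and Ephb4, with 1 membrane per point, WT in blue and HET in orange. Filled points lie above the brightest control spot of their membrane (short bar) and open points below it: all 10 points of PFD 7 are open, all 10 of PFD 10 are filled, and on PFD 14 the HET points of Edg1 and Ephb4 are open.

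With no replicate membranes, the spread between repeated spots of 1 reference (housekeeping) gene on 1 membrane was used as a scale for how far readings separate. Only sets with every spot above the controls and below the scanner's ceiling were used, so the scale does not cover spots close to background. The ceiling was set at 45701, which is 90% of the highest density on the series' 12 membranes. Over 15 such sets on the angiogenesis membranes the pooled SD was 0.28 log2 units and the largest SD of a set was 0.58. From the pooled SD, readings of 1 spot on 2 membranes were called separated when they differed by 0.78 log2 units, or 1.72-fold. This covers the printing and reading of spots and leaves out differences between membranes, pools and animals. By it, the Pecam1 densities of WT on PFD 10 and 14 were not separated (0.41 log2 units apart), and both stood above HET of PFD 10, which stood above HET of PFD 14. Nos3 had the same order, with the WT readings 0.48 log2 units apart and not separated. Efnb2 in HET of PFD 10 was not separated from WT of PFD 10 (0.75), stood 1.02 log2 units above WT of PFD 14, and that reading stood 2.04 above HET of PFD 14. Ephb4 in WT of PFD 10 stood 1.67 log2 units above WT of PFD 14, which was not separated from HET of PFD 10 (0.42). None of the 3 Edg1 readings above background were separated from the next.

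The first question along time is the change from PFD 7 to PFD 10, in both genotypes. Since every vessel gene was below background on PFD 7, its rise has only a lower bound, taken against the lowest density that cleared the controls on the earlier membrane. Without scaling between membranes, Efnb2 was at least 74.2-fold higher on PFD 10 than on PFD 7 in WT and at least 68.4-fold higher in HET. In WT the bounds were at least 7.86-fold for Nos3, at least 5.70-fold for Ephb4, at least 4.94-fold for Pecam1 and at least 1.56-fold for Edg1. In HET they were at least 2.44-fold for Nos3, at least 2.06-fold for Pecam1, at least 1.90-fold for Ephb4 and at least 1.65-fold for Edg1. Bounds of 2-fold or more were reached by 4 of the 5 genes in WT, where 75.7% of the 74 genes with a fold did so, and by 3 of the 5 in HET, where 65.6% of 64 did so. Those shares are close to the background of the array, since most of its genes brightened between the days. In whole callus RNA, fewer cells of a type and less RNA per cell cannot be told apart.

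A limma fit on quantile-normalized log2 values, with genotype as a block and Benjamini-Hochberg adjustment over 96 genes, called 31 genes between PFD 10 and PFD 7 (32.3%). Efnb2 rose by 5.28 log2 units (SE 0.66, adjusted p = 0.0049, limma). Edg1 came out lower by the same test, at -4.78 log2 units (SE 0.63, adjusted p = 0.0049, limma), although its density was higher on PFD 10 in both genotypes. Quantile normalization gives every membrane the same spread of values, and Edg1 ranked 10th and 14th of 100 on the PFD 7 membranes while lying below their controls. Without scaling the sign turned, to 1.63 log2 units (adjusted p = 0.32, limma), so the normalized value gives no direction for Edg1. Ephb4 (-2.22, adjusted p = 0.072), Nos3 (1.52, adjusted p = 0.10) and Pecam1 (1.15, adjusted p = 0.24) did not pass in the limma fit, and Ephb4 turned to 3.28 without scaling (adjusted p = 0.11). Efnb2 alone of the 5 passed upward both after quantile normalization and without scaling, at 8.93 log2 units in the second (adjusted p = 0.0075, limma). With scaling to reference genes, Pecam1 (adjusted p = 0.0047), Nos3 (0.0043) and Ephb4 (0.014) passed upward in limma too, and Edg1 did not (0.093). These fitted values rest on day 7 readings below background and are not fold bounds.

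The genotype comparison on PFD 10, the first day on which all 5 genes could be read, depended on the scaling. Without scaling, the HET membrane was lower for all 5: Nos3 by 4.99-fold, Ephb4 by 4.65-fold, Pecam1 by 3.72-fold, Efnb2 by 1.68-fold and Edg1 by 1.46-fold. The HET membrane was dimmer as a whole, since 62 of the 67 genes measured on both membranes were lower and their median difference was -1.45 log2 units, against -1.90 over the 5 vessel genes. The vessel genes lower by at least 2-fold were 3 of 5, beside 63.4% of the 71 genes with a fold. After quantile normalization, which removes an overall shift, the differences were -0.57 log2 units for Ephb4, -0.48 for Nos3, -0.15 for Pecam1, 0.36 for Efnb2 and 0.73 for Edg1. None reached 2-fold in either direction, where 13% of the 77 genes with a fold were lower by that much. The median over the 5 was -0.15 log2 units and over the 67 measured genes -0.17.

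Nos3, Ephb4 and Pecam1 lay below 0 under 6 of 6 settings on PFD 10, while Edg1 and Efnb2 lay below 0 under 2 of 6, those without scaling and with scaling to reference genes. Ligand and receptor thus fell on different sides of 0 under the other 4 settings. Settings that changed only the offset or the background subtraction kept the quantile normalization, so the 6 settings are not separate checks. The change of Efnb2 relative to Ephb4, HET against WT, was 1.47 log2 units without scaling, which no common factor per membrane can alter, and 0.93 after quantile normalization. The spread between repeated spots sets a limit of 1.11 log2 units for such a relative change, so the first value passes it and the second does not. In the unscaled densities this is a ligand signal that fell from 31497 to 18766 beside a receptor signal that fell from 2436 to 572.

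On PFD 14 the HET membrane was again the dimmer as a whole, with 44 genes above background against 79 in WT. Without scaling, Nos3 was 10.2-fold lower in HET, Pecam1 5.23-fold lower and Efnb2 4.07-fold lower. Edg1 was at least 2.97-fold lower and Ephb4 at least 3.26-fold lower, as bounds against the lowest density that cleared the controls in HET. All 5 were thus lower by at least 2-fold, beside 64.4% of the 73 genes with a fold. Nos3, the synthase, had the third lowest of the 38 measured differences, at -3.35 log2 units where the median of the 38 was -1.25.

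After quantile normalization the PFD 14 differences were 0.30 log2 units for Pecam1, -0.45 for Nos3 and -0.84 for Efnb2, and Edg1 and Ephb4 had no bound. None of the 3 was lower by 2-fold, beside 13% of the 46 genes with a fold, and the median of the 38 measured genes was 0.31. Nos3 was below 0 under 6 of 6 settings on PFD 14, Efnb2 under 5 of 6 and Pecam1 under 2 of 6. Nos3 was therefore the one vessel gene measured on both days and below 0 on PFD 10 and PFD 14 under every scaling and background setting run. This is a count of signs. After quantile normalization and with median scaling, Nos3 differed by -0.48 and -0.70 log2 units on PFD 10 and by -0.45 and -0.47 on PFD 14. All of these lie within the 0.78 log2 units set by repeated spots. The HET spot of Nos3 on PFD 14 was not above background under 2 of the 3 other thresholds tried. Those were 1 threshold for all membranes and 1.5 times the brightest control.

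**Figure D2:**
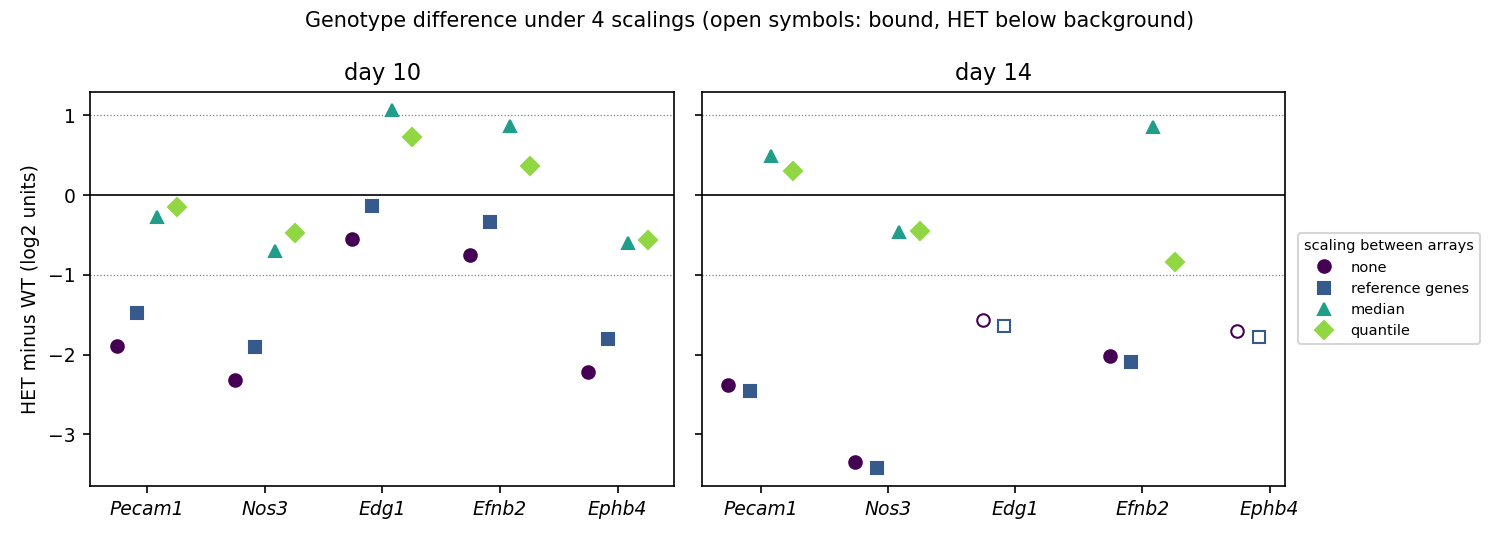
HET minus WT difference in log2 units for the 5 vessel genes on PFD 10 (left) and PFD 14 (right) under 4 scalings between membranes, 1 membrane per genotype and day, with dotted lines at 2-fold. Nos3 lies below 0 under each scaling on both days, from -0.48 after quantile normalization to -2.32 without scaling on PFD 10, while Efnb2 on PFD 10 lies on either side of 0. Open symbols are bounds for Edg1 and Ephb4, which were below background on the HET membrane of PFD 14.

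On PFD 7 no difference between the genotypes could be given, since all 5 genes were below background on both membranes. Over the 3 days together, the limma fit with day as a block and 2 residual degrees of freedom before moderation called 0 of 96 genes (0%) between HET and WT. In that fit 2 genes had an unadjusted p under 0.05, and the lowest adjusted p was 0.87. The fitted differences were -0.88 log2 units for Ephb4 (95% interval -2.37 to 0.62), -0.42 for Nos3 (-1.56 to 0.72), -0.19 for Pecam1 (-1.43 to 1.04), -0.05 for Edg1 (-1.35 to 1.25) and 0.08 for Efnb2 (-1.28 to 1.45). Each interval holds 0 and also holds a change of 2-fold in at least 1 direction, so neither a lack of difference nor a 2-fold one was shown at this size. Leaving out the PFD 7 membranes gave 0.08 for Pecam1, -0.46 for Nos3, 0.22 for Edg1, -0.24 for Efnb2 and -0.28 for Ephb4, with 0 of 96 genes called by limma and 3 at an unadjusted p under 0.05.

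Between PFD 10 and PFD 14, the ligand and its receptor dimmed in WT. In the background-corrected values without scaling, the endothelial markers Pecam1, Nos3 and Edg1 changed about as much as the array's median gene or less. The background was removed on each membrane separately, so these values can depart from the densities: the Edg1 density itself went from 680 to 702. Without scaling, Ephb4 was 3.49-fold lower and Efnb2 3.44-fold lower on PFD 14 in WT. Pecam1 changed by -0.46 log2 units, Nos3 by -0.52 and Edg1 by -0.07, where the median of the 60 measured genes was -0.52. Among further endothelial genes of the array, Cdh5 changed in WT by -2.47 and Kdr by -1.76 or further below 0. Cd36 changed by -0.85, Tek by -0.53 and Vcam1 by 0.54. A fall of this size was thus not particular to the ligand and its receptor. Efnb2 and Ephb4 held the seventh and the sixth lowest change among those 60 genes, and their changes differed from each other by 0.02 log2 units. The vessel genes lower by at least 2-fold were 2 of 5 in WT, beside 30.1% of the 73 genes with a fold. Relative to Pecam1 on the same membranes, Efnb2 fell by 1.32 log2 units and Ephb4 fell by 1.34, both past the limit of 1.11 set by repeated spots, but the values after quantile normalization, -0.55 and -1.05, were not. After quantile normalization the WT changes were -1.05 for Ephb4, -0.55 for Efnb2, 0.24 for Edg1 and 0 for Pecam1 and Nos3.

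In HET, Efnb2 was 8.31-fold lower on PFD 14 than on PFD 10, the third lowest change of the 38 genes measured on both days. Nos3 was 2.92-fold lower and Pecam1 1.94-fold lower, while Ephb4 was at least 2.45-fold and Edg1 at least 2.13-fold lower. That makes 4 of 5 lower by at least 2-fold, beside 44.9% of the 69 genes with a fold, and the median of the 38 measured genes was -0.50 log2 units, or -0.86 over the 35 of them below the scanner's ceiling on both days. Relative to Pecam1, Efnb2 fell by 2.10 log2 units in HET. After quantile normalization Efnb2 still had the lowest of the 3 measured changes, at -1.75 log2 units, beside 0.03 for Nos3 and 0.45 for Pecam1. In both genotypes together, limma called 0 of 96 genes (0%) between PFD 14 and PFD 10, with 7 at an unadjusted p under 0.05 and a lowest adjusted p of 0.35. Its value for Efnb2 was -1.15 log2 units (SE 0.66, adjusted p = 0.70) and for Ephb4 -0.77 (SE 0.72, adjusted p = 0.78).

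**Figure D3:**
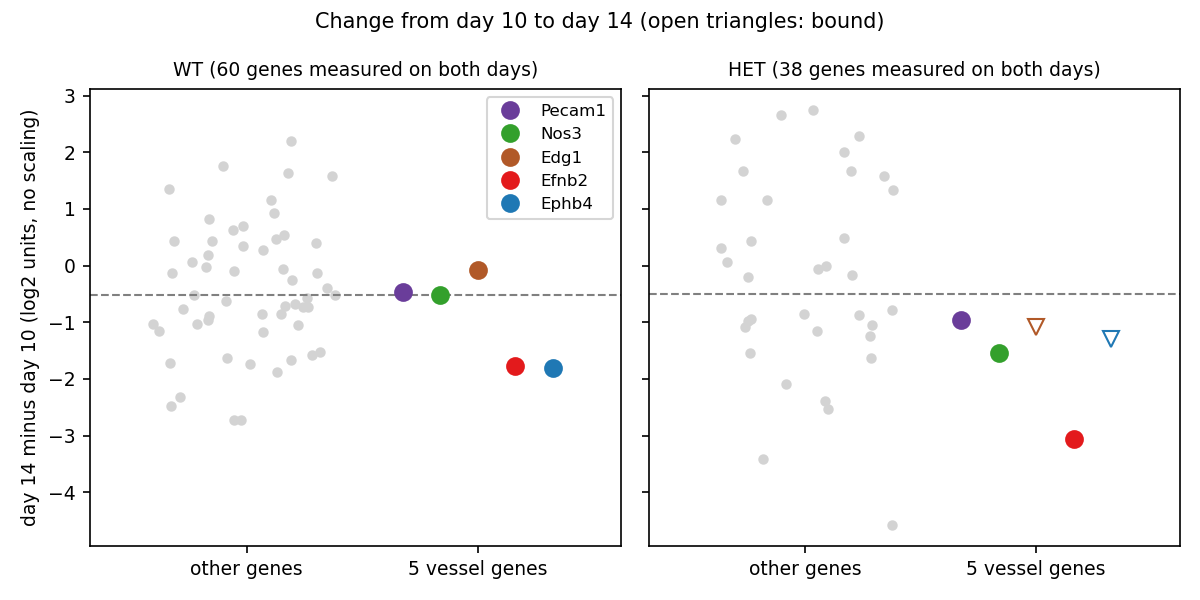
Change from PFD 10 to PFD 14 in log2 units without scaling, in WT (left, 60 genes measured on both days) and HET (right, 38 genes), with other genes in grey, the 5 vessel genes in colour, and the median of all measured genes dashed. Efnb2 and Ephb4 lie at -1.78 and -1.80 in WT, below Pecam1, Nos3 and Edg1, and Efnb2 lies at -3.05 in HET. Open triangles are bounds for genes below background on PFD 14, and the sideways position of grey points has no meaning.

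The authors' deposited table gives spots as a ratio to the Actb spots and leaves some empty, which did not simply follow their density. Ephb4 in WT had a ratio on PFD 7 at a density of 64.9 and none on PFD 14 at 765. In the authors' deposited table the Efnb2 ratio was 0.637 in WT and 0.385 in HET on PFD 10, and 0.182 and 0.0442 on PFD 14. The ratio of Nos3 in the authors' deposited table was 0.0670 in WT and 0.0132 in HET on PFD 10, and that of Pecam1 was 0.0297 and 0.00525 on PFD 14. All of these pairs were lower in HET, as the unscaled densities were. Set beside those densities, the ratios place the Actb spots above 45701, the density set as the scanner's ceiling, on these membranes. The ratio is thus close to the density divided by a constant, so the shared direction is no separate check. The authors' deposited table also holds values for Edg1 on PFD 7, 0.00204 in WT and 0.00435 in HET, although both spots were dimmer than the brightest control there.

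The array carried 12 further endothelial genes of the list used, among them Cdh5, the cadherin of endothelial junctions, Kdr and Flt1, the VEGF receptors, and Tek and Tie1, the angiopoietin receptor and its partner. None of the 12 were above background on PFD 7, 6 were in WT and 9 in HET on PFD 10, and 8 in WT and 4 in HET on PFD 14. Flt1 was at the scanner's ceiling on both PFD 10 membranes and in WT of PFD 14. The summed density of the other 11 was 252 in WT and 1602 in HET on PFD 7, 27547 and 15954 on PFD 10, and 19740 and 11303 on PFD 14. On PFD 10, after quantile normalization, 2 of the 7 genes that had a fold stood 2-fold or more above WT in HET and 0 stood as far below, where 6 and 10 of all 77 genes did so, with a median of 0.27 log2 units over the 5 measured. Without scaling, 1 of 6 was higher and 3 were lower by that much, where 2 and 45 of all 71 genes were, with a median of -1.21. On PFD 14 after quantile normalization, 1 of the 4 with a fold (Flt1) was lower by 2-fold and 0 were higher. Of all 46 genes with a fold, 6 were lower and 4 higher. Without scaling, 2 of 8 were lower by that much and 0 higher, beside 47 and 1 of all 73 genes. These were Tek (-1.24 log2 units) and Cdh5 (-2.07 or further below 0). The median of the 3 measured below the scanner's ceiling in both genotypes was 0.52 after quantile normalization and -0.23 without scaling. Angpt2, the angiopoietin of remodelling vessels, was the gene of the list highest in HET on PFD 10. It was higher by at least 2.08 log2 units after quantile normalization and at least 1.31 without scaling. On PFD 14 Angpt2 was the lower in HET without scaling, with a bound of -0.998 log2 units. After quantile normalization it had no fold that day. Flt1, whose spot was at the scanner's ceiling in WT on PFD 14 but not in HET, has only a bound there: without scaling HET minus WT was -0.23 log2 units or further below 0.

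Genes of other cells that the callus could hold were few on this array. Of the ephrin family beside the pair, Efna2 and Efna5 were present, and Efna5 differed on PFD 10 by 0.39 log2 units after quantile normalization and by -0.99 without scaling. Of mural cell genes, on PFD 10 Angpt1 was 1.11 log2 units higher in HET after quantile normalization and 0.77 higher without scaling, while on PFD 14 it differed by 0 and -1.60. Pdgfrb, the PDGF receptor of pericytes, differed on PFD 10 by -1.32 and -2.92. The HET spot of Pdgfrb read 165 that day, barely above the brightest control at 162, so both differences rest on a reading close to background. Msr1, a scavenger receptor of macrophages, was 1.98 log2 units higher in HET on PFD 14 after quantile normalization and 1.09 without scaling, while on PFD 10 it differed by 0.33 and -0.095. The platelet genes present were Cxcl4 and Itgb3, of which 1 was above background on each PFD 10 membrane and in WT of PFD 14. On PFD 10 this was Cxcl4 in WT but Itgb3 in HET, and on PFD 14 it was Itgb3 in WT. Cxcl4 was lower in HET on PFD 10, with bounds of -1.08 log2 units after quantile normalization and -2.48 without scaling. Itgb3, above background only in HET that day, had no fold between the genotypes. The summed platelet density ran from 928 in WT to 342 in HET that day and from 797 to 149 on PFD 14, where 0 of the 2 were above background in HET. The median density of the 100 genes ran from 1435 to 511 and from 1129 to 130.0, so the platelet sum fell by no larger a factor than that median. Pecam1, which platelets carry too, was lower in HET on the same membranes without scaling but not on PFD 14 after quantile normalization (0.30), and the part of platelets in its signal was not tested. Of the bone matrix genes, Sparc was at the scanner's ceiling in WT on PFD 10 and in both genotypes on PFD 14, while Spp1 read 3653 in WT and 1606 in HET on PFD 10 and 11369 and 9740 on PFD 14. The muscle genes of the list were 0 in number on this array.

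The genes whose course over the 6 membranes was most like each vessel gene were found by Pearson's r of the normalized log2 values among 66 genes above background on at least 3 membranes. The nearest to Nos3 was Tek (r = 0.99), followed by Flt1 (0.98). The nearest to Efnb2 was Tgfb3 (0.98), followed by Thbs1 (0.97), and without scaling these stood at 0.98 and 0.95. Pecam1 lay nearest to Fgfr1 (0.97) and Tgfbr1 (0.96), and Ephb4 to Vegfa (0.91) and Edg1 (0.90). Edg1 lay nearest to Hif1a (0.98), a likeness of 0.29 without scaling, and to Csf3 (0.98). The 6 points share the membranes, and those of PFD 7 are below background for the vessel genes, so the values describe a course dominated by the step from PFD 7 to PFD 10.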

How the data were processed

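Fracture callus RNA (pools of 3 animals, 3 ug labelled, per the labels' protocols) was measured on 6 angiogenesis membranes, 1 per genotype and day. The scanner readings that the authors deposited are intensities, 1 linear density per spot with no local background, for 112 spots (106 gene spots for 100 genes, 6 controls). The authors' table holds a linear ratio: all 289 deposited ratios lay within 1% of the density minus the membrane's lowest, divided by the same for Actb. The imaging software is not stated in the labels or headers. The HET day 7 sample has a second reading, headed WT day 7 and identical to that membrane at all 112 spots, which was not used.

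Densities were background-corrected by normexp over all spots (offset 25.9, 10% of the median gene density of the series' 12 membranes), turned into log2, averaged over a gene's spots and quantile-normalized (limma 3.58.1, R 4.3.3). Values without scaling stand beside these, because 9 to 91 genes per membrane were above background. A fold is a bound where 1 side was below the brightest control. No vessel gene reached the ceiling of 45701, set at 90% of the highest density on the 12 membranes. The limma fit was tested on simulated data. Per-day differences have no test; the number of membranes limits the precision. Alternatives were scaling, offset, background subtraction, thresholds and leaving out each day. The 5 genes and the gene lists were chosen with earlier results of these data known. Besides the 5 genes and Hif1a, the text names the 2 genes most like each and 6 listed genes by rule. These 6 (Flt1, Angpt2, Msr1, Pdgfrb, Angpt1 and Cxcl4) had the largest genotype differences of at least 1 log2 unit after quantile normalization on PFD 10 or 14. Further listed genes, such as Cdh5, Kdr, Tek, Cd36, Vcam1, Itgb3, Efna5, Sparc and Spp1, stand for their lists and were not named by that rule. The change from day 10 to day 14 within a genotype was added after seeing the data.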

Additional observations from a re-analysis of the deposited data

Results flagged for a closer look

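Pecam1 and Efnb2 stood out because their HET minus WT difference after quantile normalization had opposite signs on the days on which they could be read. For Pecam1 it was -0.15 log2 units on PFD 10 and 0.30 on PFD 14. For Efnb2 it was 0.36 on PFD 10 and -0.84 on PFD 14. There is 1 membrane per genotype and day, so the difference between the days was not tested. Without scaling, all of these differences were below 0, at -1.90 and -2.39 for Pecam1 and -0.75 and -2.02 for Efnb2.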

How the results depend on the processing

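The median HET minus WT difference of the vessel genes on PFD 10 moved from -0.15 log2 units to -1.90 without scaling and -1.49 with reference genes. On PFD 14 the median was -2.39 without scaling, 0.50 with median scaling and -2.46 with reference genes, against -0.45 after quantile normalization. Efnb2 relative to Ephb4 on PFD 10 was 1.47 without scaling and with median or reference scaling. Reference gene scaling raised the genes called by limma between PFD 10 and PFD 7 from 31 to 68. Signs of fitted values turned as follows. For Pecam1, the genotype effect was 0.076 without the PFD 7 membranes, and the change from PFD 10 to PFD 14 was -0.71 without scaling and -1.65 with reference genes. The same change of Nos3 was -1.03 and -1.97. For Edg1, the genotype effect was 0.19 with median scaling, 0.22 without PFD 7 and 0.060 without PFD 14, and the change from PFD 7 to PFD 10 was 1.63 without scaling and 2.54 with reference genes. For Efnb2, the genotype effect was -0.49 without scaling, -0.47 with reference genes, -0.24 without PFD 7 and -0.054 without PFD 10. For Ephb4, the change from PFD 7 to PFD 10 was 3.28 without scaling and 4.19 with reference genes. On the HET membrane of PFD 14, 1 vessel gene (Efnb2) instead of 3 was above background with 1 threshold for all membranes, and 1 with 1.5 times the brightest control. The cause of these shifts was not tested. Limma called 0 genes for genotype and for PFD 14 against PFD 10 under every alternative run. Signal over background limits every value of PFD 7 and, in HET, those of Edg1 and Ephb4 on PFD 14.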
